A study of Mus musculus with 3 samples.

Results

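Exon peaks are the Foxf2-FLAG ChIP-seq peaks that fall inside the exons of protein-coding transcripts and outside a set window around any transcription start. A peak was taken as exonic when its midpoint lay in a coding exon, a 5' untranslated region (5' UTR) or a 3' untranslated region (3' UTR) of a GENCODE basic protein-coding transcript, and when it was not between 1000 bp upstream and 100 bp downstream of any annotated transcription start site (TSS). Of 25704 peaks on the main chromosomes, 1082 were exonic, 488 of those lay in the promoter window, and the other 594 (2.31% of the list) were the exon peaks described here. They comprised 310 peaks in 3' UTRs (52.2%), 146 in coding exons (24.6%) and 138 in 5' UTRs (23.2%).

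The peaks came from chromatin of mouse tongues at E12.5, a stage of mid-gestation. All libraries came from Foxf2FLAG/FLAG embryos, which are homozygous for a 3xFLAG epitope tag placed on the endogenous Foxf2 protein by CRISPR/Cas9 editing. The 2 FLAG ChIP libraries were precipitated with an anti-FLAG antibody, and 1 Input library of unprecipitated chromatin served as the control for peak calling, with 75 tongues given for each of the 3 samples and the number per library not stated. An untagged control was not analysed here. The values were 1 list of peaks, each 212 bp wide (end minus start), with a position in mm10, a score and a focus ratio. Both are the authors' own values for a peak. The scale of the score is not stated, so it was used to rank and describe peaks, and a higher focus ratio was read as a sharper peak. There were no values per library, the sequencing depth is unknown, and every comparison is between peaks of this list. Peaks are not biological replicates, so the p-values describe this list and not variation between animals, and the 95% intervals of shares, which are exact (Clopper-Pearson), cover the counting of peaks only.

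Foxf2 is a forkhead transcription factor of the embryonic mesenchyme, required in mice for normal development of the palate and tongue. Forkhead proteins bind DNA through a winged-helix domain that recognises variants of the sequence GTAAACA, and they are best known for binding distal enhancers and promoters. Exons can also hold regulatory elements of their own or of neighbouring genes, and the same bases then carry a protein-coding or RNA-processing message as well.

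Matches to the forkhead sequence are printed below for 4 of the highest-scored exon peaks of each class. The forkhead core was searched as GTAAACA (the strict form), as the variant ATAAACA, as the variant GTAAATA and as the variant ATAAATA, on both strands of the 200 bp around the peak midpoint. The strict form was also counted on its own, so its matches are a subset of those of the core. Each line gives the 7 bases of the core nearest to the midpoint in capitals with 5 bases on either side, 5' to 3' on the strand of the match, from the RefSeq GRCm38 (mm10) sequence. Coding exon peaks are represented by Ngfr (core at chr11:95571954-95571960, minus strand), Rptor (chr11:119865568-119865574, minus), Sh3d19 (chr3:86114929-86114935, minus) and Zc2hc1b (chr10:13171269-13171275, minus). The 5' UTR peaks are Ctdsp2 (chr10:126978876-126978882, minus), Sec62 (chr3:30793057-30793063, minus), Tor1aip1 (chr1:156036239-156036245, minus) and Dhx40 (chr11:86807638-86807644, minus). The 3' UTR peaks are Kcnma1 (chr14:23293149-23293155, plus), Trio (chr15:27770571-27770577, minus), Ccdc186 (chr19:56787484-56787490, plus) and Akap11 (chr14:78492732-78492738, plus).
Ngfr: gcaaaATAAACAaggag
Rptor: tgagtGTAAACActatt
Sh3d19: ataaaATAAACAaaccc
Zc2hc1b: ttctgGTAAACAtaaag
Ctdsp2: tccagATAAACAacccg
Sec62: ggcgtGTAAACAcagat
Tor1aip1: gctacGTAAACAactat
Dhx40: cggaaGTAAACAcccct
Kcnma1: atgggATAAACAgacca
Trio: atattGTAAATAtaaag
Ccdc186: acttgGTAAACAggcac
Akap11: aataaATAAATAgagag
Of these 12 cores, the cores of Sh3d19 and Zc2hc1b lay outside the exon that held the peak midpoint, and the other 10 lay within it. The core was 3 bp from the midpoint in Ngfr and in Ctdsp2 and 2 bp in Dhx40, whereas it was 93 bp away in Kcnma1.

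The highest-scored exon peak lay in the 3' UTR of Kcnma1, the pore-forming subunit of the large-conductance calcium-activated potassium channel, at chr14:23292953-23293165. Its score of 126 ranked 59 in the whole list. The midpoint was in the last of 30 exons, 768 bp before the transcript end, and was exonic in 1 of the 3 overlapping transcripts. The gene body held 14 other peaks. The next was the 5' UTR peak of Ctdsp2, which encodes a small phosphatase of the RNA polymerase II tail. It scored 69.7, ranked 562 in the list, and lay 159 bp downstream of the start site in the first of 8 exons. The coding exon peak of Ngfr, the p75 neurotrophin receptor, scored 65.2 and ranked 689. That of Sh3d19, an SH3-domain adaptor, scored 63.5.

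The other 6 of the 10 highest-scored exon peaks were all in 3' UTRs. Trio, a guanine nucleotide exchange factor, had a score of 59.3, with the midpoint 32 bp before the transcript end. Ccdc186, a coiled-coil protein, scored 58 at 42 bp before the end of its transcript. Akap11, an anchoring protein for protein kinase A, scored 56.1 and held 3 cores in the central 200 bp. Phactr2, a regulator of phosphatase 1 and actin, scored 53.6 and had 12 other peaks in its gene body. Tmem214, a membrane protein of the endoplasmic reticulum, and Mthfd1l, a mitochondrial enzyme of folate metabolism, each scored 51.2. All 10 of these peaks held a forkhead core. The core nearest to the midpoint had the strict form in 4 of them, at 36 bp in Ccdc186, 6 bp in Phactr2, 5 bp in Tmem214 and 13 bp in Mthfd1l.

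The remaining peaks among the 5 highest of each class also lay in genes of varied function. Among coding exon peaks, Zc2hc1b scored 46.9 in exon 2 of 6. The peak of Rptor, the raptor subunit of the mTORC1 kinase complex, scored 43.9 in exon 21 of 34, an exon of 119 bp. Rin2, an exchange factor for Rab5, scored 41.6 in exon 8 of 12. Among 5' UTR peaks, Sec62, a component of the protein-translocation machinery of the endoplasmic reticulum, scored 48.9 at 205 bp from its TSS. Tor1aip1, an inner nuclear membrane protein, scored 46 at 139 bp, and this midpoint was also exonic in Tor1aip2. Dhx40, a DEAH-box helicase, scored 44.1 at 103 bp. Cacng2, an auxiliary subunit of AMPA receptors, scored 39.8 at 118 bp and was the only one of the 15 peaks of this choice without a forkhead core.

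Exon peaks followed their classes in where they stood along the gene. The 5' UTR peaks lay a median of 190.5 bp downstream of the start of their host transcript, and 126 of the 138 (91.3%) were in the first exon. Coding exon peaks lay a median of 6489.5 bp from the start, with 25% of them within 344.5 bp and 25% beyond 36282.5 bp. The 3' UTR peaks lay a median of 47082.5 bp from the start, a median of 1312.5 bp past the stop codon and a median of 806 bp before the transcript end, in exons of a median length of 2907.5 bp. Within the 3' UTR class, 107 peaks (34.5%) were between 100 bp upstream and 1000 bp downstream of an annotated transcript end.

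The 200 bp windows around the midpoints were not wholly exonic in every case. All 212 bp of the peak lay within exons for 418 exon peaks (70.4%). That was so for 52 coding exon peaks (35.6%), 96 5' UTR peaks (69.6%) and 270 3' UTR peaks (87.1%). Coding exons holding a peak were a median of 287 bp long. For 519 exon peaks (87.4%) the midpoint was exonic in every overlapping basic protein-coding transcript of the gene, and 538 (90.6%) were also exonic in a RefSeq mRNA, curated or predicted.

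Relative to the amount of sequence, the classes differed in density. The 5' UTR class had 53.8 peaks per Mb, over 2.56 Mb of 5' UTR sequence outside the promoter window. The 3' UTR class had 10.004 per Mb over 31.0 Mb, and the coding class had 4.27 per Mb over 34.2 Mb. For all exon peaks together the density was 8.77 per Mb, against 9.71 per Mb for all peaks over the sequenced genome. The 5' UTR density was thus 5.55 times, the 3' UTR density 1.03 times and the coding density 0.44 times that of all peaks. These ratios are descriptions, with no test. Of the 138 5' UTR peaks, 132 lay within 1000 bp of a TSS, and the density of peaks in other sequence that close to a TSS was not computed.

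The exon peaks lay in 565 host genes. No host gene held 3 or more exon peaks, 29 held 2, and 235 (41.6%) had another peak in the gene body that was not an exon peak. The host was also the gene of the nearest protein-coding TSS for 135 5' UTR peaks (97.8%), 118 coding exon peaks (80.8%) and 170 3' UTR peaks (54.8%). For the remaining 3' UTR peaks, the start site of another gene was closer than that of the gene whose mRNA holds the peak.

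With peaks close to a TSS included, a forkhead core was less frequent in exon peaks than in the rest of the list. It was found in 381 of 594 exon peaks (64.1%, 95% interval 60.1 to 68.0), against 18260 of 25110 other peaks (72.7%, 72.2 to 73.3), and in 72.5% of the whole list. The odds ratio was 0.671 (0.565 to 0.799), with p = 6.17e-06 and an adjusted p of 1.44e-05 in a two-sided Fisher's exact test, adjusted over 7 tests by the Benjamini-Hochberg method. Without exon peaks within 1000 bp of a TSS the direction turned, to an odds ratio of 1.34 (Fisher's exact test, p = 0.0169). The other peaks were unchanged in that comparison and still included promoter peaks. Among peaks scoring above the median of the list the odds ratio was 0.819 (Fisher's exact test, p = 0.188). The strict form GTAAACA was found in 162 exon peaks (27.3%) and 6888 other peaks (27.4%), with 27.4% in the whole list. Its odds ratio was 0.992 (0.821 to 1.19), with an adjusted p of 0.963, so differences within that interval cannot be told apart from none. Among other peaks, the core was present in 74.9% of 10282 intronic peaks and 60.1% of 2191 promoter peaks.

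The core was concentrated at the midpoints of exon peaks. Flanking windows of 200 bp, centred 2000 bp to either side of the same midpoints, held it in a mean of 17.5%, against 64.1% at the centre, a 3.66-fold difference (exact McNemar test against each side, larger p 2.24e-54, adjusted 1.57e-53). For GTAAACA the centre had 27.3% and the flanks 2.95%, a 9.26-fold difference (adjusted p 2.60e-29). Among coding exon peaks the core was in 52.7% of centres and 15.4% of flanks (adjusted p 7.98e-10), and among 3' UTR peaks in 79.7% of centres and 15.8% of flanks (adjusted p 1.62e-49). Among 5' UTR peaks it was in 41.3% of centres and 23.6% of flanks, a 1.75-fold difference (adjusted p 0.00515). All 3 classes were therefore higher at the centre than in their own flanks. Exonic sequence of each kind cut into 200 bp windows gives another background: 8.23% of 171159 coding windows, 9.14% of 12837 5' UTR windows and 20.3% of 154938 3' UTR windows held the core. The exon peaks exceeded these by 6.41-fold for coding exons, 4.52-fold for 5' UTRs and 3.92-fold for 3' UTRs.

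Coding exon and 5' UTR peaks held the core less often than 3' UTR peaks, a difference that was past the threshold only with the peaks close to a TSS included. It was present in 77 of 146 coding exon peaks (52.7%, 44.3 to 61.1), 57 of 138 5' UTR peaks (41.3%, 33.0 to 49.99) and 247 of 310 3' UTR peaks (79.7%, 74.8 to 84.0). Coding exon peaks had it less often than 3' UTR peaks, with an odds ratio of 0.285 (0.182 to 0.446; Fisher's exact test, adjusted p 2.96e-08 over 6 tests). Peaks in 5' UTRs also had it less often than those in 3' UTRs, with an odds ratio of 0.179 (0.113 to 0.285; adjusted p 2.15e-14). Between 5' UTR and coding exon peaks the odds ratio was 0.631 (0.384 to 1.04) with an adjusted p of 0.0695, above the threshold of 0.05. Without exon peaks within 1000 bp of a TSS, coding exon peaks held the core in 73.6% and 3' UTR peaks in 79.9% (odds ratio 0.699, Fisher's exact test, adjusted p 0.472). For 5' UTR against 3' UTR peaks the odds ratio was then 0.251, with 6 5' UTR peaks left (adjusted p 0.315).

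Within the coding class the position of the exon in the gene split the peaks. In first exons the core was present in 8 of 50 coding exon peaks (16.0%, 7.17 to 29.1). In internal exons it was present in 46 of 63 (73.0%, 60.3 to 83.4), and in last exons in 21 of 26 (80.8%, 60.6 to 93.4). Several of the last-exon peaks lay in Zfp zinc finger genes, which share similar repeats, and the interval counts such peaks as separate. The intervals of first exons did not overlap those of internal or last exons. GC content moved with this split: the median GC content of the central 200 bp was 69.5% in first exons, 46.0% in internal exons and 43.2% in last exons.

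**Figure D1:**
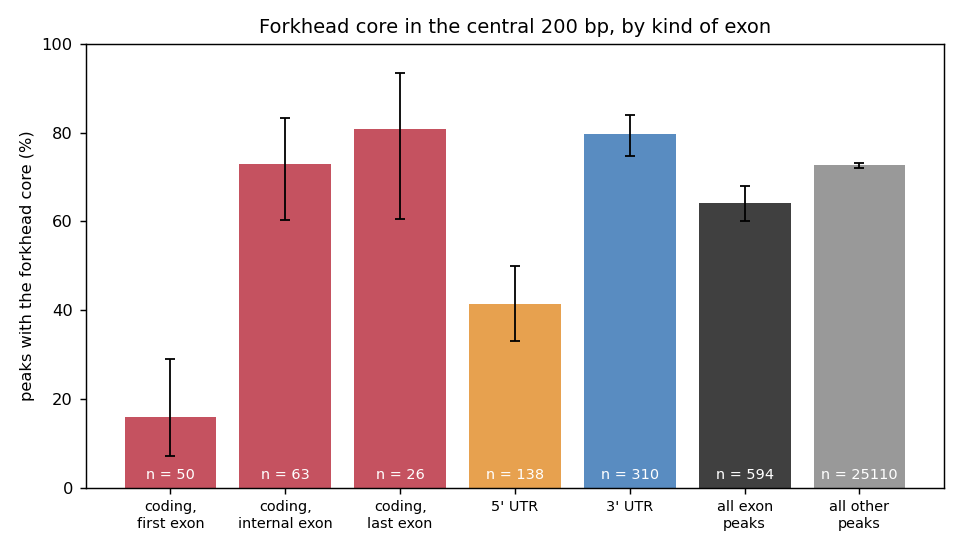
Share of peaks with a forkhead core in the central 200 bp (vertical axis, percent from 0 to 100) for coding exon peaks by exon position, 5' UTR peaks, 3' UTR peaks, all exon peaks and all other peaks. Bars are shares, error bars are exact 95% intervals, and n is the number of peaks. First coding exons (16.0%) and 5' UTRs (41.3%) are low, while internal coding exons (73.0%), last coding exons (80.8%) and 3' UTRs (79.7%) stand close to or above the other peaks (72.7%). The 7 coding peaks of single-exon transcripts are not drawn.

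The distance to the nearest start site divided the exon peaks in the same way. Of 197 exon peaks within 1000 bp of a TSS, 71 held the core (36.04%, 29.3 to 43.2), against 310 of 397 exon peaks farther from every TSS (78.1%, 73.7 to 82.1). The near group had a median GC content of 67.5%, a median score of 12.6 and a median focus ratio of 0.68, against 43% GC, a score of 15.6 and a focus ratio of 0.786 in the far group. Coding exon peaks held the core in 13 of 59 near cases (22.0%) and 64 of 87 far cases (73.6%). Only 6 of the 5' UTR peaks were far from every TSS, and only 6 of the 3' UTR peaks were near one, so these classes could hardly be split. With distance counted from the start of the host transcript, the share was 31.6% up to 200 bp (95 peaks), 36.1% from there to 500 bp (72 peaks), 45.5% to 1000 bp (22 peaks), 71.8% to 10000 bp (78 peaks) and 79.2% beyond 10000 bp (327 peaks). When the exclusion around the TSS was widened to 1000 bp on both sides for exon peaks, the core was in 78.1% of the 397 remaining ones. It was in 72.7% of the other peaks, which were not filtered in this way. They still held 2191 promoter peaks, of which 60.1% had the core, and without promoter peaks their share was 73.9%. GTAAACA also stood higher in the 397 exon peaks, at 33.8%, against 27.4% in the same unfiltered other peaks (odds ratio 1.35, Fisher's exact test, p = 0.00648).

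**Figure D2:**
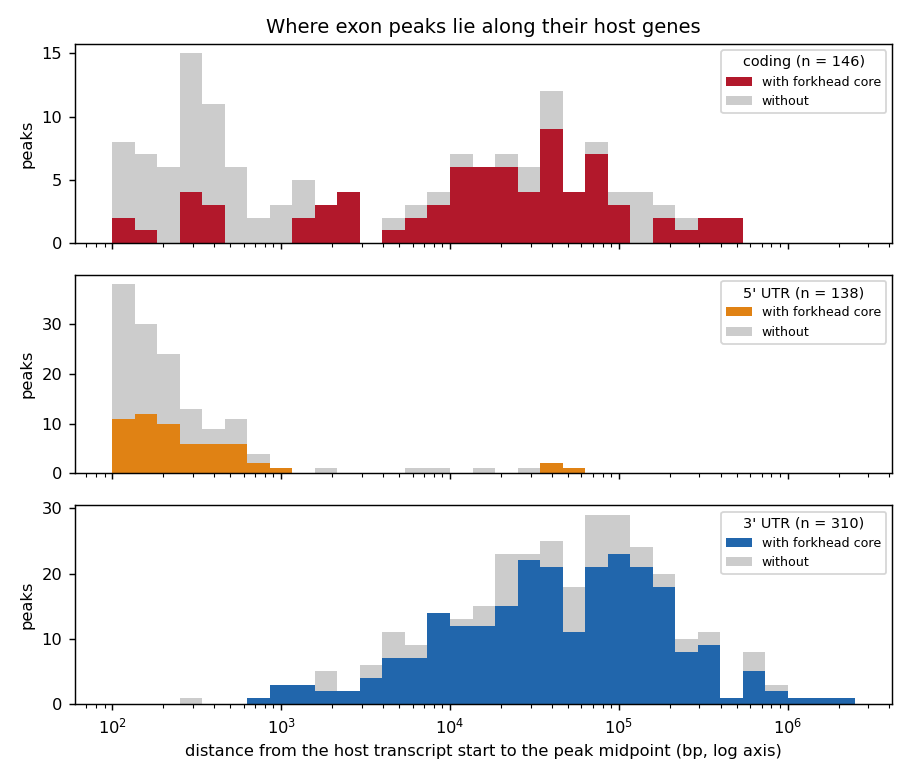
Number of exon peaks (vertical axis) by distance from the start of the host transcript to the peak midpoint (horizontal axis, bp, log scale), in 1 panel for each class, with peaks that hold a forkhead core in colour and those without one stacked above in grey. The 5' UTR peaks and a group of coding exon peaks sit within 1000 bp of the start and are mostly grey, whereas the 3' UTR peaks and the more distant coding exon peaks are mostly coloured.

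At the edge of the promoter window, 107 exon peaks lay over 100 and up to 200 bp downstream of a TSS, and 337 peaks within 100 bp downstream were left out by the rule. The peaks just inside the rule held the core in 30.8%, with a median score of 12.4 and 66.5% GC. Those just outside held it in 49.3%, with a median score of 15.2 and 65% GC. These values describe the edge and were not tested.

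Exon peaks were richer in GC than the rest of the list. The median GC content of the central 200 bp was 47.5% in exon peaks and 43.5% in the other peaks. A GC content above the median of the other peaks was found in 61.3% of exon peaks and 48.2% of other peaks, an odds ratio of 1.698 (1.43 to 2.02; Fisher's exact test, adjusted p 1.33e-09). By class the medians were 52.5% in coding exons, 66% in 5' UTRs and 42.5% in 3' UTRs. Leaving out exon peaks within 1000 bp of a TSS changed the direction of this comparison, to an odds ratio of 0.881 (Fisher's exact test, p = 0.224). The other peaks were unchanged in it and still included promoter peaks.

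At a given GC content the forkhead core was about as frequent in exon peaks as in other peaks, except in GC-rich sequence. Under 40% GC it was present in 80.3% of 127 exon peaks and 78.9% of other peaks. Between 40% and 50% it was present in 78.8% of 212 exon peaks and 72.9% of other peaks, and between 50% and 60% in 68.6% of 102 exon peaks and 67.9% of other peaks. At 60% GC or more it was present in 42 of 153 exon peaks (27.5%, 20.6 to 35.2), against 516 of 1074 other peaks (48.0%, 45.0 to 51.1). In that last range the core was in 9 of 55 coding exon peaks, 27 of 90 5' UTR peaks and 6 of 8 3' UTR peaks. Compared within 10 deciles of GC content, the odds ratio of the core between exon peaks and other peaks was 0.81, with p = 0.0228 in a Cochran-Mantel-Haenszel test, which unlike the others is not an exact test.

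**Figure D3:**
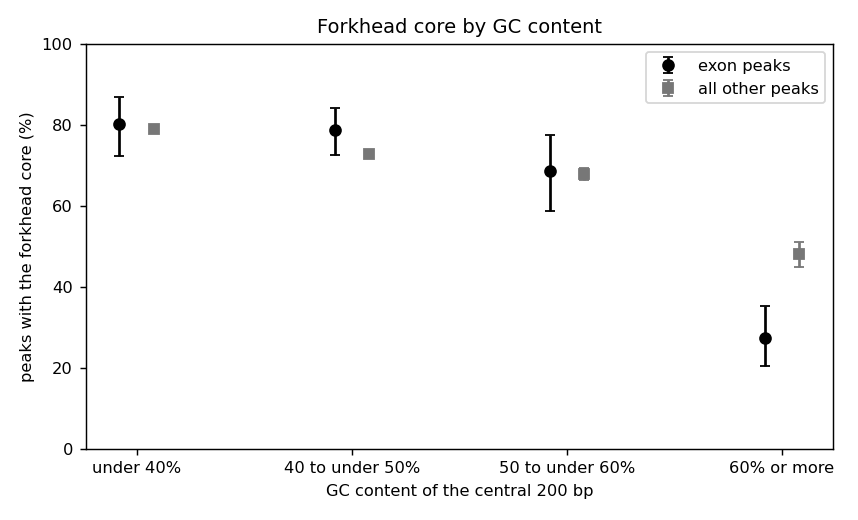
Share of peaks with a forkhead core (vertical axis, percent) by GC content of the central 200 bp (horizontal axis, 4 ranges), for exon peaks (black circles, left in each pair) and all other peaks (grey squares). Points are shares and error bars exact 95% intervals. The pairs lie close together below 60% GC and part at 60% or more, where exon peaks have 27.5% and other peaks 48.0%.

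Exon peaks had lower scores than the rest of the list. The median score was 14.5 in exon peaks (quartiles 11.7 and 21.5) and 16.2 in other peaks (12.3 and 24.6). A score above the median of the other peaks was found in 42.4% of exon peaks and 49.8% of other peaks, an odds ratio of 0.742 (0.627 to 0.878; Fisher's exact test, adjusted p 0.000573). The focus ratio was lower as well, with medians of 0.765 in exon peaks and 0.783 in other peaks. A ratio above the median of the other peaks was found in 40.6% of exon peaks and 49.7% of other peaks (odds ratio 0.691, 0.583 to 0.818, adjusted p 1.83e-05). Both differences were not past the threshold without exon peaks within 1000 bp of a TSS. Against the same other peaks, promoter peaks included, the odds ratio was then 0.888 for the score (Fisher's exact test, p = 0.245). For the focus ratio it was 1.09 (Fisher's exact test, p = 0.39). Another peak lay within 10 kb of 31.1% of exon peaks and 36.8% of other peaks (odds ratio 0.777, 0.648 to 0.929, adjusted p 0.00591), and this difference was not past the threshold within 5 kb.

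Over all exon peaks, those in 3' UTRs had the highest median score, and the difference from each other class was past the threshold. Without the peaks close to a TSS, and so with fewer peaks, neither difference was past it. The median score was 13.05 in coding exons, 12.8 in 5' UTRs and 16.15 in 3' UTRs, with highest scores of 65.2, 69.7 and 126. A score above the median of all exon peaks, 14.5, was found in 41.8% of coding exon peaks and 58.1% of 3' UTR peaks (odds ratio 0.518, 0.341 to 0.787; Fisher's exact test, adjusted p 0.00194). For 5' UTR peaks the share was 39.1%, against the same 58.1% of 3' UTR peaks (odds ratio 0.464, 0.301 to 0.713; adjusted p 0.000454). Between 5' UTR and coding exon peaks the odds ratio was 0.896 (0.542 to 1.48; adjusted p 0.717). Without exon peaks within 1000 bp of a TSS, the cut was the median of the remaining peaks, 15.6. A score above it was found in 40.2% of 87 coding exon peaks and 52.3% of 3' UTR peaks (odds ratio 0.614, Fisher's exact test, adjusted p 0.313). Only 6 5' UTR peaks were left, and their odds ratio against 3' UTR peaks was 0.456 (adjusted p 0.519), close to the 0.464 of all exon peaks. The median focus ratio was 0.7465 in coding exons, 0.69 in 5' UTRs and 0.7905 in 3' UTRs. Cut at the quartiles of their score, the exon peaks from lowest to highest held the core in 47.6%, 60.4%, 71.4% and 76.8%, and the share of 3' UTR peaks in these 4 groups was 38.1%, 47.7%, 61.2% and 61.6%.

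**Figure D4:**
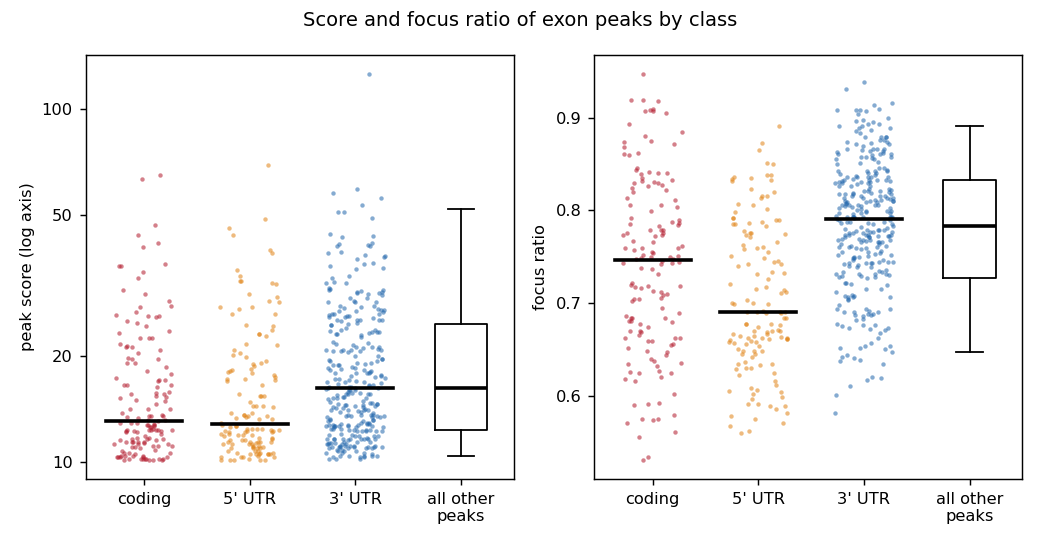
Peak score (left, log axis) and focus ratio (right) of every exon peak by class, with a line at the class median, beside a box for all other peaks (box from the lower to the upper quartile with the median, whiskers at the 5th and 95th percentiles). The 3' UTR peaks have a median score of 16.15 and focus ratio of 0.7905, near the other peaks (16.2 and 0.783), and the 5' UTR peaks have the lowest medians (12.8 and 0.69).

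The cores lay close to the peak midpoints and mostly within the exon. The core nearest to the midpoint was a median of 11 bp away over the 381 exon peaks that had one, 10 bp in coding exon peaks, 16 bp in 5' UTR peaks and 11 bp in 3' UTR peaks. Of the 517 cores in all, 485 (93.8%) had all 7 bases in exonic sequence. Among coding exon peaks, the nearest core was in exonic sequence for 61 of 77 (79.2%) and outside it for 16. Sh3d19, Zc2hc1b and Rin2, all among the 5 highest-scored coding exon peaks, belonged to those 16, with the core 52, 12 and 36 bp from the midpoint. Among 3' UTR peaks the nearest core was exonic for 244 of 247.

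**Figure D5:**
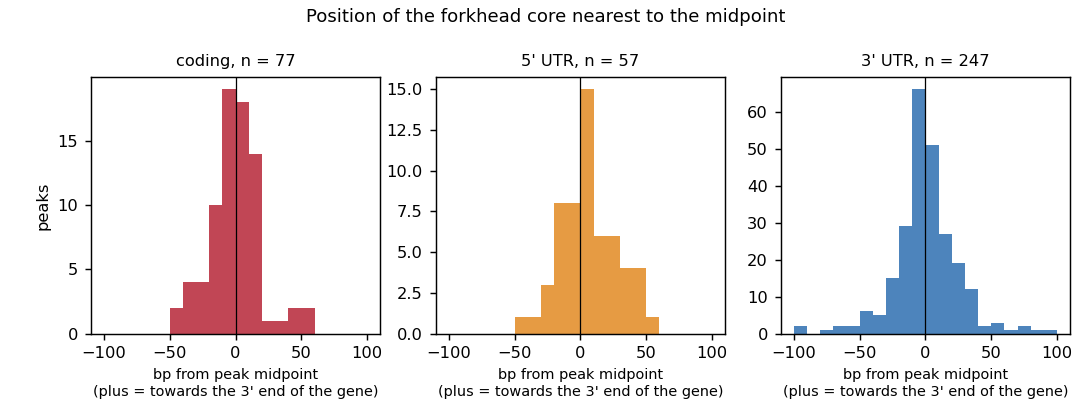
Number of exon peaks (vertical axis) by position of the nearest forkhead core relative to the peak midpoint (horizontal axis, bp, bins of 10 bp), in 1 panel for each class. The vertical line marks the midpoint, and the cores gather around it in all 3 classes, with median distances of 10, 16 and 11 bp.

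The forms of the core were counted by class, with no test. In coding exon peaks, 57 of 112 cores (50.9%) read GTAAACA and 35 read ATAAACA. In 5' UTR peaks, 20 of 71 read GTAAACA and 22 read ATAAACA, and in 3' UTR peaks ATAAACA was the most frequent form, with 142 of 334 (42.5%). In these counts a peak with several cores adds each of them. Counted by peak, over all peaks of a class with or without a core, the shares are of another kind. At least 1 GTAAACA was present in 31.5% of coding exon peaks, 14.5% of 5' UTR peaks and 31.0% of 3' UTR peaks. Cores ran on either strand of the host gene: 54 sense and 58 antisense in coding exon peaks, 34 and 37 in 5' UTR peaks, and 145 and 189 in 3' UTR peaks. Of the 45 sense cores lying within a single coding exon, 11 began at position 1 of a codon, 34 at position 2 and 0 at position 3. At position 3 the TAA of the core would be a stop codon in frame, so that 0 was fixed by the annotated reading frame. The 44 antisense cores began at codon positions 1, 2 and 3 in 12, 9 and 23 cases. Some cores also overlapped letters that can be read as a signal on the RNA. In 3' UTR peaks the polyadenylation signal AATAAA on the transcript overlapped 40 of the 334 cores (11.98%), in 37 peaks. Of these, 15 lay within 50 bp upstream of an annotated transcript end. The same letters overlapped 7 of 112 cores in coding exon peaks (6.25%) and 7 of 71 in 5' UTR peaks (9.86%). These shares were not tested against each other. Whether such letters are used as a forkhead site, as a signal in the RNA or as both was not tested.

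Exons that are intronic in at least 1 overlapping transcript of the gene held the core in 55 of 75 peaks (73.3%), against 326 of 519 peaks (62.8%) in exons common to all overlapping transcripts. The odds ratio was 1.63 (0.926 to 2.96; Fisher's exact test, p = 0.0936). The 519 include the 346 peaks with only 1 overlapping transcript, which could not count as alternative.

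Of 26 motifs compared between exon peaks and the rest, the forkhead forms included, 9 passed the threshold (34.6%; Fisher's exact tests, adjusted over 26 motifs), 1 of them the forkhead core. Compared within deciles of GC content, 0 of the 26 passed, and the forkhead core then had an adjusted p of 0.168. Those found more often in exon peaks were 3 motifs known from GC-rich promoters and 1 half-site. The SP box GGGCGG, bound by SP and KLF factors, was in 17.7% of exon peaks and 6.10% of other peaks (odds ratio 3.30, adjusted p 2.16e-20), and by class in 23.3% of coding exon, 38.4% of 5' UTR and 5.81% of 3' UTR peaks. The ETS sequence CCGGAAG was in 3.199% of exon peaks and 1.20% of other peaks (odds ratio 2.72, adjusted p 0.000963). The NRF1 motif was in 1.01% and 0.271% (odds ratio 3.76, 1.33 to 8.66, adjusted p 0.0211). It rested on 6 exon peaks, 5 in coding exons, 1 in a 5' UTR and 0 in 3' UTRs. CAGCACC, which is part of the RE1 element bound by the neuronal repressor REST, was in 6.06% of exon peaks and 3.49% of other peaks (odds ratio 1.78, adjusted p 0.00815).

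Besides the forkhead core, 4 motifs were found less often in exon peaks. The E-box CATCTG, bound by basic helix-loop-helix factors, was in 21.5% of exon peaks and 28.1% of other peaks (odds ratio 0.703, adjusted p 0.00156). The TEAD sequence CATTCC was in 10.9% of exon peaks and 15.2% of other peaks (odds ratio 0.687, adjusted p 0.0119), and the homeodomain sequence TAATTA in 2.53% and 6.16% (odds ratio 0.395, adjusted p 0.000527). AATAAA, counted on both strands, was in 28.5% of exon peaks and 36.3% of other peaks (odds ratio 0.699, adjusted p 0.000527), and by class in 16.4% of coding exon, 13.8% of 5' UTR and 40.6% of 3' UTR peaks. Where the forkhead core and AATAAA overlap, the same bases count for both. All motifs were read on both strands.

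The CAGCACC count led to a search for the complete RE1 element, allowing 4 mismatches to its 19 fixed letters. This search was added after values had been seen and carries no test. It matched 9 of 594 exon peaks (1.52%, 0.695 to 2.86), against 96 of 25110 other peaks (0.382%, 0.310 to 0.467) and 0.408% of the whole list. The matches were in 5 coding exon peaks, 3 5' UTR peaks and 1 3' UTR peak. Of the 9, 6 had no forkhead core. The median focus ratio of all 9 was 0.874, above the 0.765 of all exon peaks, and their median GC content was 68%. The 3 with the highest scores are shown from the RefSeq GRCm38 (mm10) sequence, 5' to 3' on the strand of the match, with capitals for bases that equal the fixed letters of the consensus. They lay in the 3' UTR of Tas1r3, a subunit of the sweet and umami taste receptors (chr4:155859531-155859551, minus strand), in the first exon of Xkr7, a member of the XK family of membrane proteins (chr2:153032393-153032413, plus), and in the first exon of Iqsec3, an exchange factor for Arf GTPases at synapses (chr6:121473218-121473238, minus).
Tas1r3: gTCAGCACCacGGcCAGCGCC
Xkr7: gTCAGCACCaaGGACAGCGaC
Iqsec3: TTCAGCACCacGGtCAGCtCC
Their peak scores were 43.8 for Tas1r3, 35.9 for Xkr7 and 34.6 for Iqsec3, with focus ratios of 0.896, 0.908 and 0.907, and none of the 3 held a forkhead core. The other 6 exon peaks with a match were in Golga7b, Bmt2, Scaf11, Barhl1, Lhfpl4 and Reln, with scores between 11.4 and 26.3. A match describes the letters of the window and is not a measurement of REST.

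Genes of the developmental signalling pathways and cell types of the tongue were followed by lists, and each count is read against 565 of 21827 protein-coding gene symbols (2.59%) with an exon peak. Among WNT genes, 5 of 54 had one. The receptor gene Fzd4 had the highest score, 32.1, in the 3' UTR, and the secreted antagonist Frzb scored 18.4 in the 3' UTR. The ligand Wnt5a scored 13.7 in the 5' UTR without a forkhead core, the antagonist Dkk1 scored 12.2 in the first coding exon, and the co-receptor Lrp6 scored 10.7 in the 3' UTR. Among TGF-beta and BMP genes, 2 of 46 had an exon peak, both in 3' UTRs: the ligand Bmp7 at 25.9, with 2 GTAAACA cores, and the receptor Tgfbr1 at 11.6, without a core. Notch genes had 2 of 24, the receptor Notch1 at 19.6, 10 bp past its stop codon, and the co-activator Maml1 at 12.1 in the first exon. FGF genes had 1 of 31, with Fgf10, a mesenchymal growth factor, at 12.4 in the 3' UTR. The Hedgehog list had 0 of 19 genes with an exon peak, and HGF and MET signalling had 0 of 11.

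Transcription factor genes of the mesenchyme had 3 of 54 with an exon peak, all with a forkhead core. Meis1 scored 18.3 and Nfib 13.2, both in the 3' UTR, and Snai2, a zinc-finger repressor of epithelial genes, scored 11.4 in its last coding exon, 28 bp before the stop codon. The forkhead family itself had 2 of 30: Foxp2 scored 27.4 in a 5' UTR, 124 bp from the start of its host transcript, and Foxp4 had a peak that ranked 18824 in the list, in coding exon 3 of 17. Both held a core, and that of Foxp4 was GTAAACA on the sense strand, 13 bp from the midpoint. Adhesion and guidance genes had 3 of 52, all in 3' UTRs: Nrp2, a semaphorin co-receptor, with 2 peaks at 14.1 and 12.9, Tenm4, a teneurin, at 11.8, and Sema6a, a transmembrane semaphorin, at 10.9. Extracellular matrix genes had 2 of 53, the gelatinase Mmp2 at 32.5 in the 5' UTR without a core, and the laminin chain Lama2 at 10.7 in coding exon 23 of 65.

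Markers of other cells that a whole tongue holds were counted in the same way. Pericyte and smooth muscle genes (0 of 16), epithelial genes (0 of 30), endothelial genes (0 of 20) and blood genes (0 of 16) had no exon peak. Myogenic and sarcomere genes had 1 of 43, the homeobox gene Six4, with a 3' UTR peak and a first-exon coding peak that both scored 18.1. Neuronal and glial genes had 2 of 25, Ngfr at 65.2 and Elavl4, a neuronal RNA-binding protein, at 13.6 in the 3' UTR. Among RNA-binding and splicing factors, Tial1 scored 10.2 and held a forkhead core, whereas Hnrnpu at 11.7, Celf2 at 11.1 and Srsf4 at 10.8 held none. Immediate early and stress response genes had 5 of 47: Nr4a2, an orphan nuclear receptor, at 32.1 in the 5' UTR, Sertad2 at 24, Maf with 2 peaks at 21.8 and 12.3, Nr4a1 at 18.2, and Klf4 at 12.6. Chromatin regulators had 1 of 55, the Polycomb protein Cbx8 at 16.7. These are counts of genes with a peak midpoint in an exon. They were not tested, and exon length was not matched between lists.

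Of the 29 host genes with 2 exon peaks, the 10 with the highest scores were Cep41, Rora, Arhgap24, Dlgap1, Slc10a7, Naa11, Maf, Prpf19, Adcy7 and Wipf1. Cep41, a centrosomal protein of cilia, had 2 peaks in its 3' UTR, scoring 49.3 and 38.7, both with a core and 41% and 40% GC. Rora, a nuclear receptor, had 1 of its peaks in a 5' UTR at 39.1, where the central 200 bp had 75% GC, and 1 in the 3' UTR at 27.5, with 39.5% GC and 3 cores. The gene body of Rora held 16 other peaks. Dlgap1, a postsynaptic scaffold protein, likewise had a 3' UTR peak at 28.4 and a 5' UTR peak at 10.3, each with GTAAACA within 6 bp of the midpoint. Prpf19, a ubiquitin ligase of the spliceosome, had 2 peaks in an exon of 4525 bp, scoring 21.7 and 17.2.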

How the data were processed

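The submitters' processing notes name Bowtie2 2.4.1, SAMtools 1.7.1, HOMER without a version, and the mm10 build, and per the design text the caller used the input as control. The caller's settings, and whether ChIP libraries were pooled, were not stated in those sources. The score is the authors' value as deposited, on a scale that is not stated. The focus ratio is a fraction as deposited by the authors, in a column that per the file headers may hold this ratio or a region's size, and it was read as the ratio because its values lie between 0.531 and 0.947 in exon peaks and all peaks have 1 width.

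From this list, 3 peaks off the main chromosomes were left out. Transcripts were those of GENCODE M21 basic, and sequence came from RefSeq GRCm38, the build of the peaks. A midpoint in several exon classes was counted as coding, then 5' UTR, then 3' UTR (12 peaks). Motifs were matched in 200 bp, on both strands. Shares of peaks were compared with two-sided Fisher's exact tests and centres with flanks by exact McNemar tests, with Benjamini-Hochberg adjustment and a threshold of 0.05. The tests were tried on simulated data. Alternatives changed the peaks compared, the meaning of exonic, the TSS exclusion, the window, the score range, the neighbour distance and GC stratification.

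The exon peaks, motifs and gene lists were chosen with earlier results of these data known. Genes were named by a rule: the hosts of the 10 highest-scored exon peaks, of the 5 highest in each class, of the 10 highest-scored pairs in 1 gene, and every gene of 26 lists with an exon peak, with at most 6 for a list. One gene that the rule names, and the count of its list, are not reported here. Genes with an RE1 match were named after their values were seen. Python 3.11.15, pandas 2.3.3, scipy 1.17.1, statsmodels 0.14.6, pysam 0.24.0 and matplotlib 3.10.9 were used.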

Additional observations from a re-analysis of the deposited data

How the results depend on the processing

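Of 72 alternative results, 48 kept their direction and their side of the threshold, including every alternative tried for the centre of exon peaks against their flanks. The values here are odds ratios, and the cause of a change was not tested unless given. The TSS exclusion was widened to 1000 bp on both sides for exon peaks only, which leaves 397 of them. The other peaks were unchanged and still included promoter peaks. With this setting the forkhead core changed to 1.34, GTAAACA to 1.35, the focus ratio to 1.09 and GC content to 0.881, all in the other direction. Under that setting the score (0.888) and neighbours within 10 kb (0.885) lost significance. So did the classes: coding against 3' UTR peaks had 0.699 for the core and 0.614 for the score, and 5' UTR against 3' UTR peaks, with 6 peaks in 5' UTRs, had 0.251 and 0.456. Among peaks scoring above the median of the list, the core (0.819) and the focus ratio (0.82) lost significance. With the whole width of the peak inside exons, the score (0.839) and neighbours (0.884) did, and neighbours within 5 kb had 0.902. GTAAACA, with 0.992 in the report, moved above 1 with the whole width in exons (1.05), exons common to every overlapping transcript (1.01), no transcript ends (1.02), higher-scored peaks (1.12) and a window of 100 bp (1.04), and none of these 5 was past the threshold. The core in 5' UTR against coding exon peaks passed the threshold without the 12 peaks in 2 classes (0.554), and alternative against common exons passed it with a window of 100 bp (1.79). Within deciles of GC content, motifs called higher changed to 0 and motifs called lower to 0, against 4 and 5 in the report. Requiring the midpoint to be exonic in RefSeq too, an alternative chosen after seeing the data, gave 0.639 for the core.

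No paired analysis was possible because the list holds no values per library, and leaving out a library was not possible for the same reason. The depth of the libraries is unknown, so weak peaks near the lowest score of 10.1 cannot be weighed against the depth behind them.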

Other observations

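Gene families defined by name are given here as counts beside the 2.59% of all protein-coding gene symbols with one. Zfp zinc finger genes had 14 of 462 with an exon peak, and of their 15 peaks 8 were in coding exons. The highest-scored were Zfp282 at 30.7, Zfp971 at 30, Zfp212 at 29.4, Zfp608 at 24.8, Zfp143 at 23.5 and Zfp667 at 23.4. In Zfp971 the peak lay in the last coding exon and held 3 forkhead cores, all GTAAACA, with the nearest 2 bp from the midpoint. Members of this family share similar zinc-finger repeats, so the assignment of reads among near-identical copies is uncertain there, and its part in these peaks was not tested.

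Histone genes had 5 of 83 with an exon peak: Hist2h2bb at 20.7, Hist1h2be at 18.9, Hist1h4i at 17, Hist1h1d at 15.4 and Hist1h1e with 2 peaks at 12.6 and 10.6. Hist2h2bb, Hist1h2be and Hist1h4i each held GTAAACA within 11 bp of the midpoint. Ribosomal protein genes had 1 of 92, Rpl9 at 13.4 in the 3' UTR of 1 of 4 overlapping transcripts. Olfactory receptor genes had 1 of 1133, Olfr1318 at 29.2 in the 3' UTR, without a core. Kruppel-like and Sp genes had 1 of 26, the Klf4 peak of the report. Hox genes (0 of 39) and clustered protocadherins (0 of 56) had none.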
